A study of Mus musculus with 6 samples.

Results

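The genes described here encode heat shock proteins of the cytosol and nucleus and some of their partners, measured in renal cortex from male C57BL/6 mice that had or lacked the C3a receptor. They were chosen by name as Hspa1a, Hspa1b, Hspa8, Hsph1, Dnajb1, Dnaja1, Hsp90aa1, Hsp90ab1, Hspb1 and Bag3, which are 10 of the 20490 genes that were measured above background. In all, 19 of the 56605 distinct probes of the array carried these names, and 18 of them stood clear of background on every array of 1 genotype or of both. The remaining probe, 1 of 3 for Hsp90aa1, was designed on an expressed sequence tag and was not well above background on any array.

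The series held 6 one-colour Agilent arrays of renal cortical RNA, 3 labelled WT control and 3 labelled C3aR-/- control. Per the labels, animals entered the protocol at 8 weeks of age, and the control arm was kept on normal chow (10% of energy as fat) and was injected with vehicle instead of streptozotocin. The tissue was taken 20 weeks after the time of induction. The allele behind the C3aR-/- label, and whether all cells lacked the receptor, are not stated in the labels, and diabetic mice were not analysed here. The labels do not state that replicates were separate animals, so a p-value here reflects only the spread among these samples, which may be technical. All WT arrays lay on 1 slide and all C3aR-/- arrays on another, each with its own scan, so slide and genotype cannot be told apart.

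Heat shock proteins are chaperones that bind unfolded protein. HSP70 proteins take up unfolded chains with the help of J proteins, which deliver substrate and speed ATP hydrolysis, and of nucleotide exchange factors such as HSP110 and BAG proteins, which reset the cycle. HSP90 finishes and stabilises many kinases and receptors, and small heat shock proteins hold unfolded chains without ATP. When protein unfolds in the cell, the transcription factor HSF1 forms a trimer and binds heat shock elements, inverted repeats of a short GAA unit, in front of the inducible genes. Hspa1a and Hspa1b are the textbook inducible pair, silent or low in resting tissue, whereas Hspa8 and Hsp90ab1 are made constitutively. In the kidney these genes are known to respond to ischaemia, toxins and osmotic stress.

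The promoters of 4 genes are shown because they carry heat shock element letters upstream of the start. RefSeq (build GRCm38.p6) gave promoter windows for 7 of the 10 genes and none for Hspa8, Hsp90aa1 and Hsp90ab1. Each window ran from 250 bases before to 50 bases after a transcription start. The 250 upstream bases are printed 5′ to 3′ on the gene's strand, with GAANNTTC and TTCNNGAA in capitals, for the inducible HSP70 gene Hspa1a, the small heat shock protein gene Hspb1, the HSP110 gene Hsph1 (the first of 2 starts) and the J protein gene Dnaja1 (the first of 3 starts).
Hspa1a, chr17:34972157-34972406 (minus strand): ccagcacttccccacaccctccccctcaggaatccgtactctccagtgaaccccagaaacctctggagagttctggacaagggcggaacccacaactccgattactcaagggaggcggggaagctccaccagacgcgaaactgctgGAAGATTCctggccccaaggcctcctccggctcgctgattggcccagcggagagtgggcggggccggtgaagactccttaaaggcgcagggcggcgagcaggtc
Hspb1, chr5:135887669-135887918 (plus strand): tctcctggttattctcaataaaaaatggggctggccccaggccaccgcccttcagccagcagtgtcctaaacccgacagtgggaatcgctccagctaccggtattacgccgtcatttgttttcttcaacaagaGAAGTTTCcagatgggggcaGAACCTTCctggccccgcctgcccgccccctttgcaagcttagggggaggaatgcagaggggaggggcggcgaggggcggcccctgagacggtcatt
Hsph1, chr5:149636337-149636586 (minus strand): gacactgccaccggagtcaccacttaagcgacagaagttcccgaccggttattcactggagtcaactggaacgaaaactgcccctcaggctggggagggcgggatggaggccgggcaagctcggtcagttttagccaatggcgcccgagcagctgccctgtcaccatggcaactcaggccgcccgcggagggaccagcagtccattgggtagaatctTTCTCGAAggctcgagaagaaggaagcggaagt
Dnaja1, chr4:40722218-40722467 (plus strand): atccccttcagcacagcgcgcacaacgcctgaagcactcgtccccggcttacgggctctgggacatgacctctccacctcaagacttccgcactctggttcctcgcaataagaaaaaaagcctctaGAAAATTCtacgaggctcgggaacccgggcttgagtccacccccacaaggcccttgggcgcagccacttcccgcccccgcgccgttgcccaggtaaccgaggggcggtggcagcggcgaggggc

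GAANNTTC or TTCNNGAA, each of which reads the same on both strands, was found in the windows of 6 of the 7 genes, against 15.1% of all 32851 windows of 300 bases. The window of Hspa1a held GAANNTTC 104 to 97 bases before the start. Hspb1 held it at 117 to 110 and again at 97 to 90 bases before the start, and Dnaja1 at 124 to 117. Hsph1 held TTCNNGAA 33 to 26 bases before its first start, and after that start the only run of 3 alternating units among the 7 genes, in which TTCNNGAA and GAANNTTC overlap and share a unit. A run of 3 units in either order occurred in 0.603% of all windows. Bag3 held GAANNTTC only after the start, and neither window of Dnajb1 held either motif. The upstream sequences of Hspa1a and Hspb1 thus share the GAA-first pair, and those of Hspa1a and Hspa1b were identical at 247 of 250 bases. Counted from 1 at the 5′ end and with the Hspa1a base first, the differences were C44T, T47C and T249G. These matches describe letters and do not show binding.

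**Figure D1:**
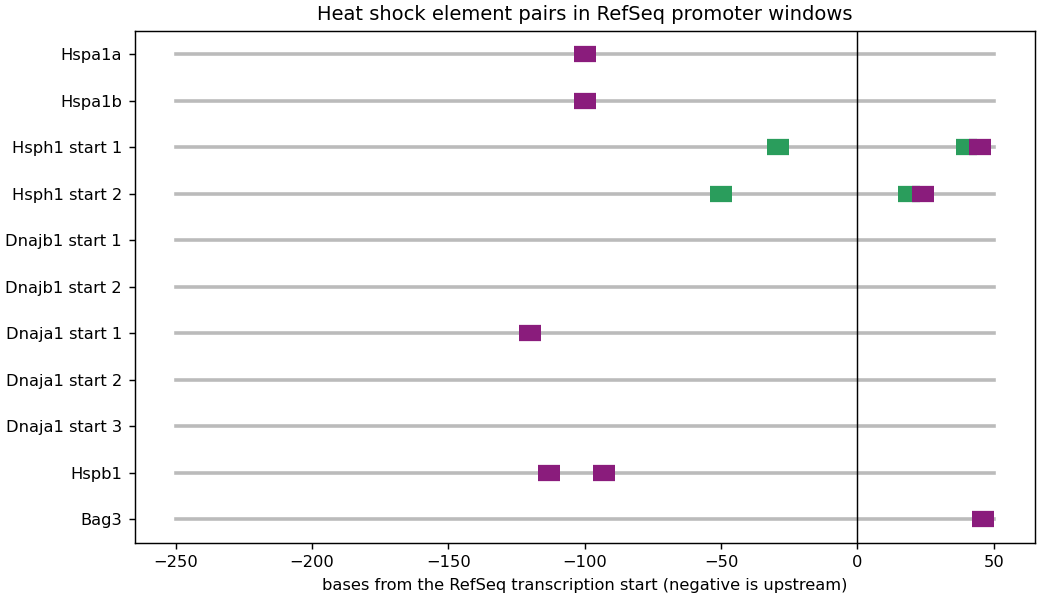
Positions of heat shock element pairs in the RefSeq promoter windows of 7 genes, in bases from the transcription start, with 1 line per start. Purple blocks are GAANNTTC and green blocks TTCNNGAA; the 2 Dnajb1 windows and 2 of the 3 Dnaja1 windows hold neither.

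Of the 10 genes, 1 passed the adjusted p threshold of 0.05 as higher in C3aR-/- cortex and 0 passed as lower (limma, Benjamini-Hochberg over all genes). The background was 7.05% of all 20490 genes higher and 7.26% lower. At an unadjusted p under 0.05 the counts were 2 higher and 0 lower, against 18.1% and 15.3% of all genes, or 33.4% in either direction. The gene called was Hspa8, the constitutive HSP70. At the level of probes, 4 of the 18 were higher and 0 lower, all 4 being probes of Hspa8, against 6.18% and 5.47% of 30867 probes. The median log2 change of the 10 genes was 0.53, beside 0.02 over all genes, and 9 of the 10 changes were positive, with unequal precision. The 10 genes share the same 6 samples and are not replicates of a shift. Their median level, with each gene centred on its mean, had an SD of 0.35 between replicates. Without WT replicate 1 the median change was 0.16. WT and C3aR-/- arrays did not overlap for 2 of the 10, Hspa8 and Hsph1, where 22.2% of all genes were non-overlapping and higher in C3aR-/- cortex and 41.3% non-overlapping in either direction. Levels below are log2 signal relative to the 75th percentile of the array, so 0 is the level of that percentile, and changes are C3aR-/- minus WT in log2 units.

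**Figure D2:**
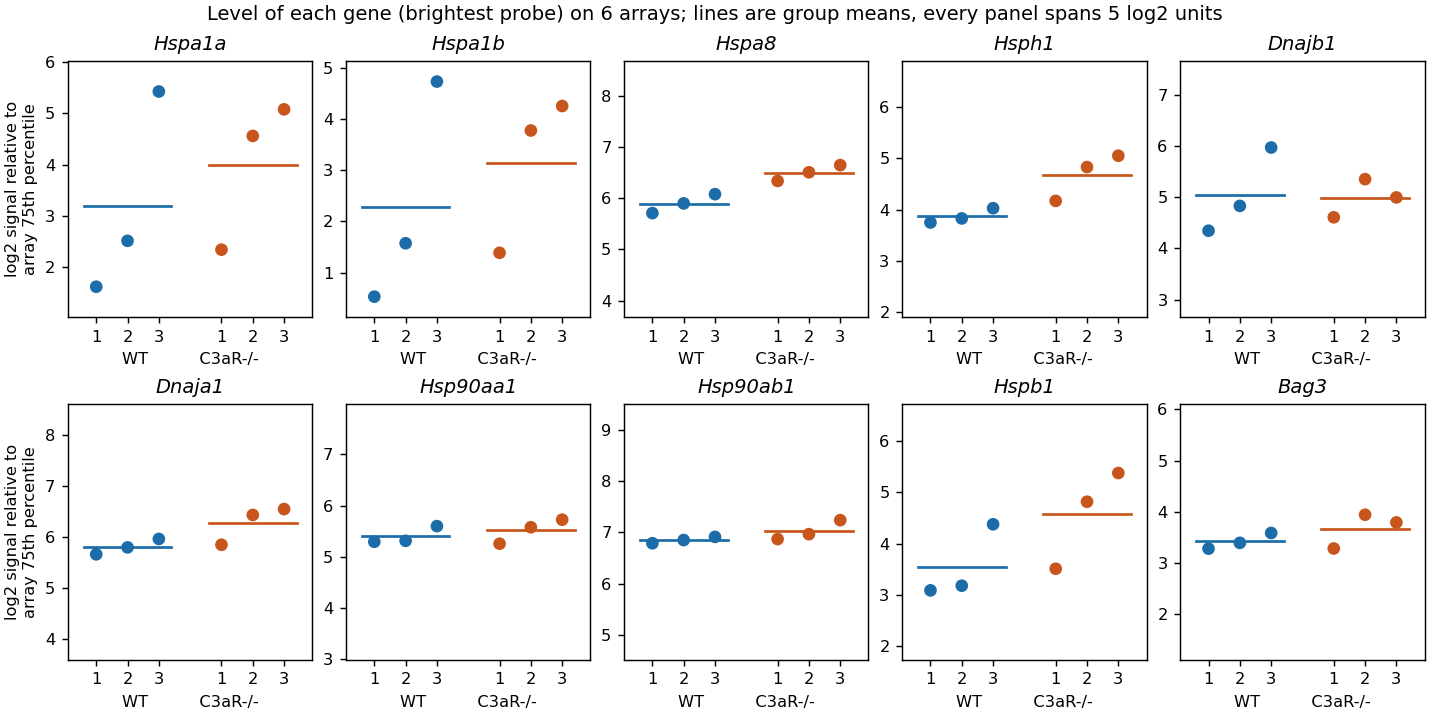
Log2 signal of each of the 10 genes, relative to the array's 75th percentile, on the 3 WT (blue) and 3 C3aR-/- (orange) arrays, with group means as lines and each panel spanning 5 log2 units. Hspa1a and Hspa1b differ most between arrays of one genotype, and Hspa8 and Hsph1 are the genes whose groups do not overlap.

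Hspa8 encodes HSC70, the constitutive HSP70 that also uncoats clathrin vesicles. Its brightest probe (mm9, chromosome 9, 40611841 to 40611900) read 5.71, 5.90 and 6.08 on the WT arrays and 6.34, 6.51 and 6.65 on the C3aR-/- arrays, each group in the order of replicates 1 to 3, as for every gene below. Every C3aR-/- array lay above every WT array, and the rise was 1.52-fold (log2 change 0.60, SE 0.12, 95% interval 0.30 to 0.91, adjusted p = 0.0320 in limma). The other 3 probes changed by 0.59, 0.82 and 0.79, each without overlap, with adjusted p-values of 0.0138, 0.0351 and 0.0297 over all probes. The 4 probes are shown because they lie at different places in the same transcript and gave the same call; they are printed as on the array, 60 bases each.
Hspa8 probe at transcript base 1219, log2 change 0.60: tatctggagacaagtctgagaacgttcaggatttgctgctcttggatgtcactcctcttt
Hspa8 probe at transcript base 1812, log2 change 0.59: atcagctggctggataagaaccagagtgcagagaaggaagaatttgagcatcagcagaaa
Hspa8 probe at transcript base 950, log2 change 0.82: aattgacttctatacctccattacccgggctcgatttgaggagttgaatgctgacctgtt
Hspa8 probe at transcript base 405, log2 change 0.79: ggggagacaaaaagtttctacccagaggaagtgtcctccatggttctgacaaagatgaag
The change of the brightest probe was 0.39 with the deposited log2 table (adjusted p = 0.0337). The call was lost in 6 of 15 alternatives, in which its adjusted p was 0.0723 to 0.0932. It ended without either of the first 2 WT arrays (adjusted p = 0.0794 and 0.0896) and without either C3aR-/- replicate 2 or 3 (0.0848 and 0.0932). It held without WT replicate 3 and without C3aR-/- replicate 1 (0.0436 and 0.0445).

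Hsph1 encodes HSP110, a nucleotide exchange factor for HSP70. Its brightest probe (chromosome 5, 150419744 to 150419803) read 3.75, 3.83 and 4.03 in WT and 4.17, 4.83 and 5.05 in C3aR-/- cortex. The groups did not overlap, but the change of 0.82 (SE 0.23, 95% interval 0.25 to 1.38) did not pass the threshold (adjusted p = 0.0677). C3aR-/- replicate 1 was the lowest array of its genotype, and without it the change was 1.07 with an adjusted p of 0.0162. A second probe gave 0.81 without overlap, and the third, a dimmer one, gave 0.68 with overlap.

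Hspa1a and Hspa1b encode nearly identical inducible HSP70 proteins from neighbouring genes. Hspa1a (probe at chromosome 17, 35106766 to 35106825) read 1.62, 2.51 and 5.43 in WT and 2.34, 4.56 and 5.08 in C3aR-/- cortex. As multiples of the array's 75th percentile these are 3.07, 5.71 and 43.1 in WT and 5.07, 23.6 and 33.8 in C3aR-/- cortex. Hspa1b (probe at chromosome 17, from 35093374 to 35093405 in the array files, a range shorter than the 60-base probe) read 0.53, 1.57 and 4.73 in WT and 1.39, 3.77 and 4.25 in C3aR-/- cortex. For both genes WT replicate 3 and C3aR-/- replicates 2 and 3 were high and the other 3 arrays low. The range within WT was 14.0-fold for Hspa1a and 18.4-fold for Hspa1b, and within C3aR-/- 6.68-fold and 7.29-fold.

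The genotype change of Hspa1a was 0.81 (SE 1.16, 95% interval -2.04 to 3.65, adjusted p = 0.658), and that of Hspa1b 0.86 (SE 1.26, 95% interval -2.22 to 3.94, adjusted p = 0.664). Both were smaller than the spread between arrays, and the intervals reach past a 4-fold change in either direction. Without WT replicate 3 the changes were 1.93 and 2.09, with adjusted p-values of 0.219 and 0.214, the lowest of their alternatives. Without WT replicate 1 they were 0.02 and -0.01. The probes have different sequences, but whether each reads its own gene alone was not checked, since no transcript sequences were used here.

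Dnajb1 and Dnaja1 encode J proteins that hand substrate to HSP70; Dnajb1 is itself heat inducible. Dnajb1 (chromosome 8, 86135660 to 86135719) read 4.34, 4.83 and 5.97 in WT and 4.61, 5.35 and 4.99 in C3aR-/- cortex. WT replicate 3 was its highest array and the groups overlapped, with a change of -0.06 (SE 0.43, 95% interval -1.12 to 1.0, adjusted p = 0.932) that was 0.40 without WT replicate 3. Dnaja1 (chromosome 4, 40679954 to 40680014) read 5.66, 5.80 and 5.96 in WT and 5.85, 6.43 and 6.54 in C3aR-/- cortex. C3aR-/- replicate 1 lay among the WT arrays, and the change was 0.47 (SE 0.20, 95% interval -0.01 to 0.95, adjusted p = 0.157). Without that array it was 0.68 and passed (adjusted p = 0.0332). The other probes of Dnaja1 gave 0.31 and 0.15.

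The HSP90 genes differed little between arrays. Hsp90aa1, the inducible isoform (chromosome 12, 111933318 to 111933377), read 5.29, 5.31 and 5.60 in WT and 5.26, 5.58 and 5.73 in C3aR-/- cortex, a change of 0.12 (SE 0.15, 95% interval -0.24 to 0.48, adjusted p = 0.611). Its second kept probe also changed by 0.12. Hsp90ab1, the constitutive isoform (chromosome 17, 45704788 to 45704847), read 6.79, 6.85 and 6.91 in WT and 6.87, 6.97 and 7.24 in C3aR-/- cortex, a change of 0.17 (SE 0.11, 95% interval -0.09 to 0.44, adjusted p = 0.304). The groups overlapped for both genes, and the upper ends of the intervals for Hsp90aa1 and Hsp90ab1, 0.48 and 0.44, lie below a 2-fold change. The change of Hsp90aa1 was 0.015 to 0.25 with 1 array left out, lowest without C3aR-/- replicate 3 and highest without C3aR-/- replicate 1, and that of Hsp90ab1 was 0.067 without C3aR-/- replicate 3. With quantile normalisation they were 0.045 and 0.032, and neither gene passed in any of 15 alternatives.

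Hspb1 encodes HSP25, an ATP-independent chaperone that also protects actin filaments. It (chromosome 5, 136365366 to 136365425) read 3.09, 3.18 and 4.38 in WT and 3.51, 4.82 and 5.38 in C3aR-/- cortex. WT replicate 3 lay between C3aR-/- replicates 1 and 2, and the change of 1.02 had a wide interval (SE 0.57, 95% interval -0.37 to 2.41, adjusted p = 0.259). It was 1.55 without C3aR-/- replicate 1 (adjusted p = 0.0956) and 0.62 without C3aR-/- replicate 3. Bag3, a nucleotide exchange factor that joins HSP70 and small heat shock proteins to selective autophagy (chromosome 7, 135690420 to 135690479), read 3.28, 3.39 and 3.59 in WT and 3.28, 3.94 and 3.79 in C3aR-/- cortex. The groups of Bag3 overlapped and the change was 0.25 (SE 0.19, 95% interval -0.20 to 0.71, adjusted p = 0.383). It was 0.45 without C3aR-/- replicate 1, 0.12 without C3aR-/- replicate 2 and 0.43 with normexp background correction, none of which passed (adjusted p = 0.0775, 0.700 and 0.0969).

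**Figure D3:**
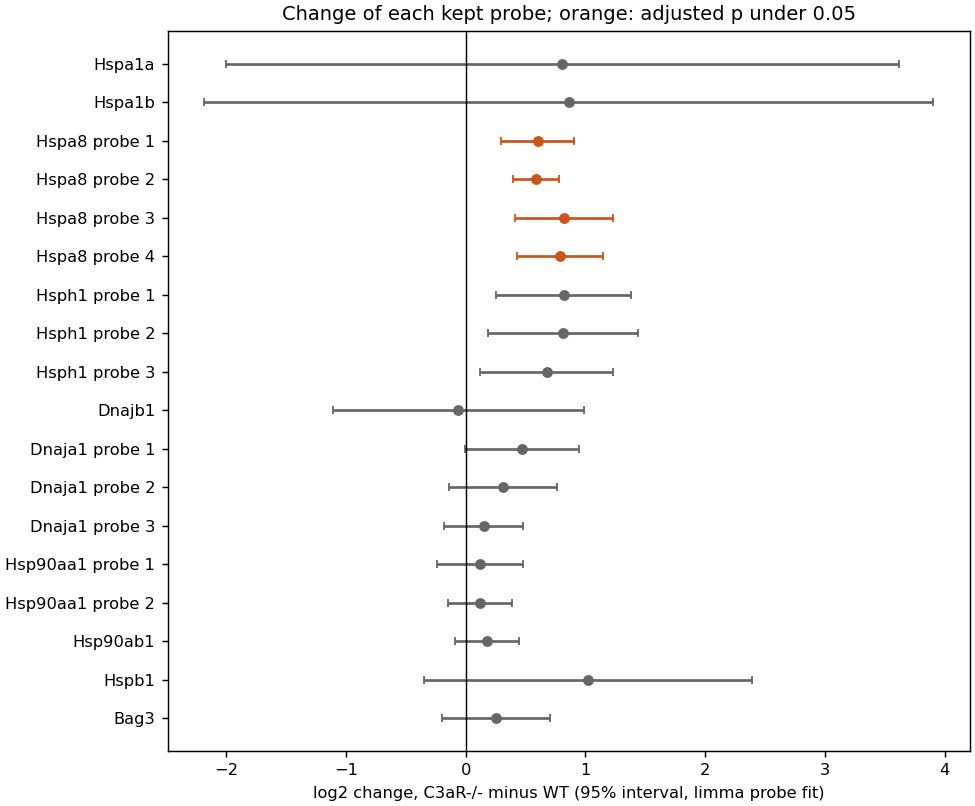
Log2 change (C3aR-/- minus WT) of the 18 kept probes of the 10 genes, with 95% intervals from the limma fit over all probes; probes of a gene are numbered from the brightest. The 4 Hspa8 probes (orange) have an adjusted p under 0.05, and the intervals of Hspa1a and Hspa1b are the widest.

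The 10 genes shared an order of the arrays. WT replicate 3 was the highest WT array for 10 of 10 genes (27.9% of all genes), WT replicate 1 the lowest for 10 of 10 (28%), and C3aR-/- replicate 1 the lowest of its genotype for 10 of 10 (30.9%). C3aR-/- replicate 3 was the highest of its genotype for 8 of 10 (26.7%). The first 3 of these held together in 10 of 10 genes, against 4.37% of all genes. This order was not planned and was read from these same values, so the shares describe it and test nothing. The genes share the same 6 RNA samples and are not independent of each other. The order was the same in 10 of 10 with normexp background correction (3.8% of all genes) and with median scaling (9.19%). It held in 9 of 10 with quantile normalisation (6.1%) and with the deposited log2 table (5.96%), where Hsp90aa1 was the exception. With median scaling, C3aR-/- replicate 1 was the lowest of its genotype for 47.4% of all genes.

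The size of that departure differed among the genes. Hspa1b in WT replicate 3 was 12.8-fold above the mean of the other 2 WT arrays (a log2 difference of 3.68), rank 5 of 20490 genes, and Hspa1a was 10.3-fold above it (3.36), rank 7. Dnajb1 was 2.61-fold and Hspb1 2.37-fold above, at ranks 80 and 112, and the other 6 genes differed by 0.09 to 0.30. Over all genes 0.898% reached a difference of 1. In C3aR-/- replicate 1, Hspa1b was 2.63 and Hspa1a 2.48 below the mean of the other 2 C3aR-/- arrays, and Hspb1 was 1.59 below. Over all genes 1.16% were at least 1 below in that array. C3aR-/- replicate 1 also had 145 spots flagged as non-uniform, against 2 to 8 on each of the other 5. Flagged spots were left out, each member probe has 1 spot, and all 19 had a value on every array. No member spot was thus among those flagged.

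Immediate early genes, which are transcribed within minutes of handling, ischaemia or growth signals, were also high in WT replicate 3. Fos, a subunit of AP-1, read -3.42, -2.99 and 2.59 in WT and -4.02, -4.14 and -3.09 in C3aR-/- cortex, so WT replicate 3 was 55.7-fold above the mean of the other WT arrays, rank 1 of all genes. Egr1, a zinc finger factor, read -0.90, -0.79 and 4.34 in WT and -2.24, -2.37 and -0.72 in C3aR-/- cortex (36.4-fold, rank 2). Egr2, Nr4a1 and Jun were 27.8-fold, 10.5-fold and 4.49-fold above. WT replicate 3 was the highest WT array for 13 of 13 immediate early genes. C3aR-/- replicate 3 was the highest of its genotype for 9 of 13 (26.7% of all genes). In C3aR-/- replicates 2 and 3, where Hspa1a and Hspa1b were also high, Fos (-4.14 and -3.09) and Egr1 (-2.37 and -0.72) lay far below their levels of 2.59 and 4.34 in WT replicate 3. Between genotypes 0 of the 13 were called by limma, 0 had an unadjusted p under 0.05, and all 13 changes were negative, with a median of -0.70. Without WT replicate 3, 7 changes were positive and 6 negative, with a median of 0.0088. The part in the heat shock gene levels of whatever raised these genes was not tested.

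**Figure D4:**
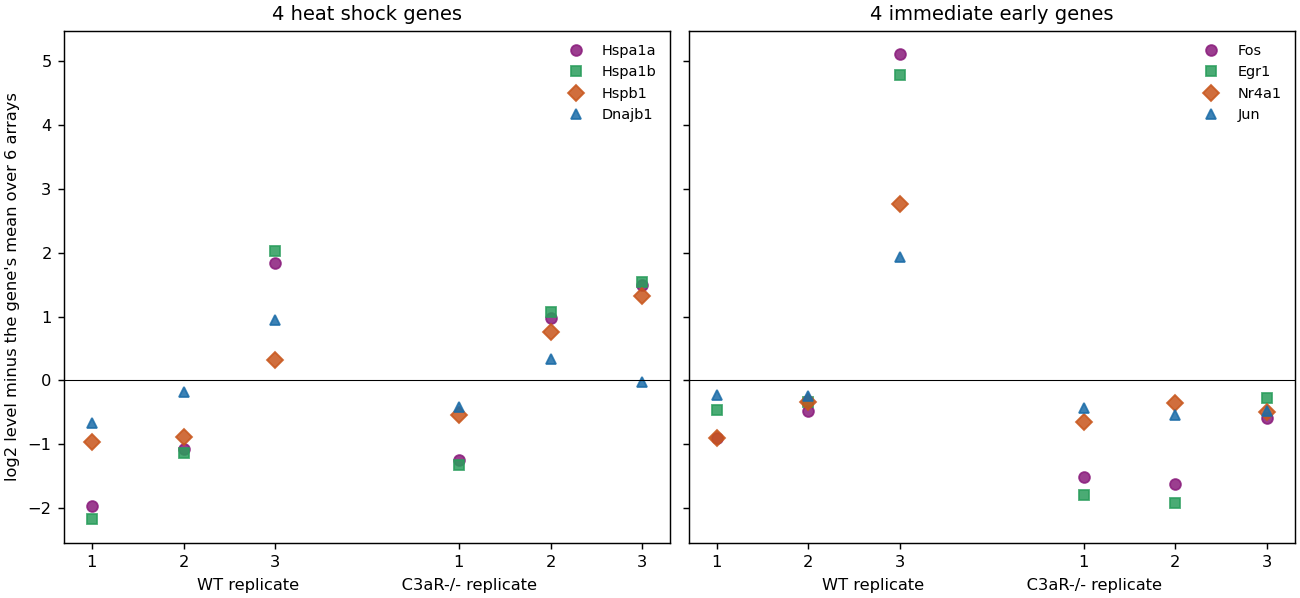
Log2 level minus each gene's mean over the 6 arrays, for Hspa1a, Hspa1b, Hspb1 and Dnajb1 (left) and Fos, Egr1, Nr4a1 and Jun (right). Both sets are high on WT replicate 3, while on C3aR-/- replicates 2 and 3 the heat shock genes Hspa1a, Hspa1b and Hspb1 are high and the immediate early genes are not.

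With 1 array left out, Hspa1a ranged from 0.02 to 1.93 and Hspa1b from -0.01 to 2.09, whereas Hspa8 stayed between 0.51 and 0.69 in the same fits. The count of members called higher was 0 to 3. It was 3 without C3aR-/- replicate 1 (Hspa8, Hsph1 and Dnaja1), where 3.2% of all genes were called higher, and 1 without WT replicate 3, where 3.11% were. It was 0 without WT replicate 1 or 2 (2.18% and 1.73% of all genes) and 0 without C3aR-/- replicate 2 or 3 (2.57% and 1.29%). It was also 0 with quantile normalisation, where 7.82% of all genes were called higher, and with no filter on dim probes, where 1.06% were.

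**Figure D5:**
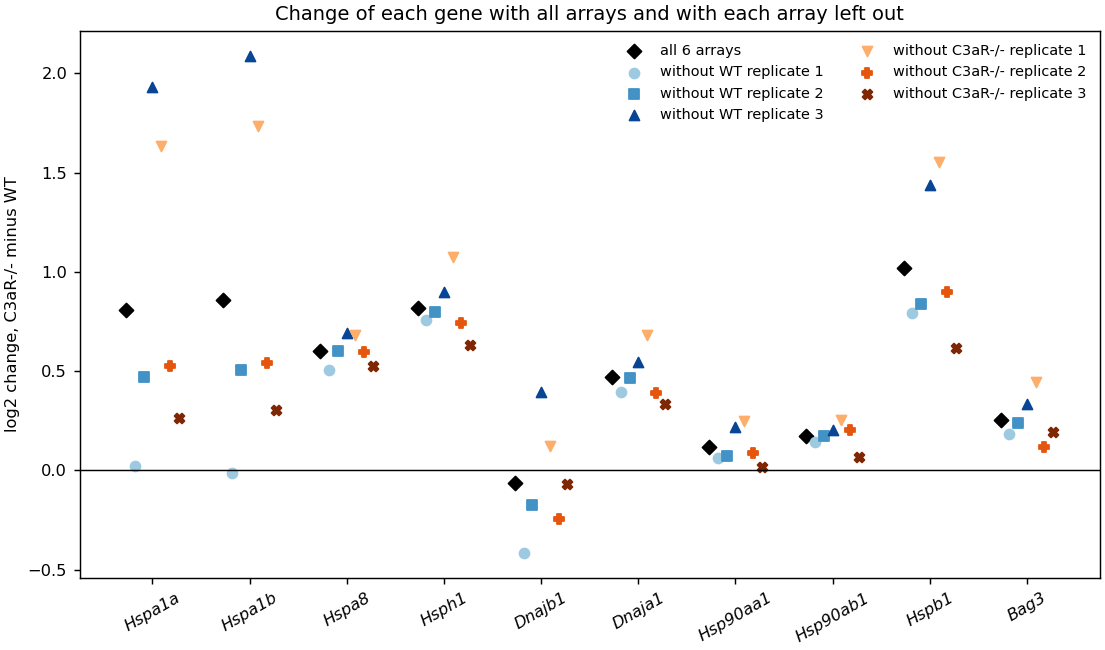
Log2 change (C3aR-/- minus WT) of each gene with all 6 arrays (black diamonds) and with each array left out in turn. Hspa1a and Hspa1b spread from about no change to about 2, and Hspa8 changes least among the genes with a change above 0.5.

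The regulators and partners of these chaperones were read from lists that hold none of the 10 genes. Of the heat shock factors and direct regulators, 4 of 6 were measured and 0 were called by limma (1 had an unadjusted p under 0.05). Hsf1, the main activator of the response, read 1.27, 1.16 and 1.13 in WT and 1.40, 1.33 and 1.41 in C3aR-/- cortex (change 0.19, adjusted p = 0.103). Hsf2 changed by -0.18 (adjusted p = 0.165). Of 6 other cytosolic HSP70 and HSP110 genes and 6 other small heat shock proteins, 0 were called by limma in either direction, with 1 and 2 at an unadjusted p under 0.05, where 33.4% of all genes lay. Of 16 other J proteins 0 were higher and 1 lower, Dnajb5 (-0.32, adjusted p = 0.0369), against 7.05% and 7.26% of all genes.

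Of 18 co-chaperones of HSP90 and HSP70, 2 were higher and 1 lower, against 7.05% and 7.26% of all genes. Nudc, a co-chaperone that acts in dynein function, rose by 0.43 (adjusted p = 0.0292), with its other probe at 0.49. Fkbp4, an immunophilin of steroid receptor complexes, rose by 0.33 (adjusted p = 0.0289), but its other probes gave -0.18 and 0.20. Ppp5c, a phosphatase that docks on HSP90, fell by 1.13 on its brightest probe (adjusted p = 0.00266) and had 0.39 on its other probe. Of 5 other BAG proteins, 1 was higher, Bag6 (0.25, adjusted p = 0.0393). Among 14 TRiC and prefoldin subunits 1 was higher, Cct2 (0.35, adjusted p = 0.0410). Both counts stand beside 7.05% of all genes higher. Of 9 mitochondrial chaperones and 15 chaperones of the endoplasmic reticulum, 0 were called by limma, with medians of 0.10 and 0.22 and with 5 and 2 genes at an unadjusted p under 0.05 (33.4% of all genes). The mitochondrial median was -0.017 with quantile normalisation, with 4 changes positive and 5 negative. Without C3aR-/- replicate 1, 3 chaperones of the endoplasmic reticulum were higher and their median was 0.37.

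Of 12 further genes known to follow heat or temperature, 1 was higher, against 7.05% of all genes. It was Sqstm1, an autophagy receptor that works with BAG3 (0.40, adjusted p = 0.0242, with other probes at 0.37 and -0.13). Clock genes are given because body temperature and heat shock gene levels follow the time of day. Of 13 measured, 2 were higher and 1 lower, against 7.05% and 7.26% of all genes. Nr1d1 and Nr1d2, repressors of the clock, rose by 2.15 and 1.07 (adjusted p = 0.0242 and 0.0392), and Cry1 fell by 1.24 (adjusted p = 0.00829). The labels do not state the time of day at which tissue was taken, and the part of these clock genes in the levels was not tested. Over 15 alternatives Ppp5c kept its call in all 15, but its change was -0.37 with the mean of its probes (adjusted p = 0.0371), and Nudc, Cct2, Dnajb5, Sqstm1, Fkbp4 and Bag6 lost theirs in 7, 8, 9, 9, 10 and 11, and Nr1d1 and Nr1d2 in 6 and 7. Cry1 lost its call in 1 of 14, with normexp background correction (-0.80, adjusted p = 0.120). It had no value where probes had to be well above background on all 6 arrays. Cry1 was thus kept through 1 genotype only, and it was dim. It read -4.12, -4.19 and -4.06 in WT and -5.27, -5.67 and -5.15 in C3aR-/- cortex. Its count of kept calls therefore does not make it a sturdy difference.

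Among genes with a known symbol, those whose profile over the 6 arrays lay nearest the mean profile of the 10 were Ccn2, Aldh1a2, Scn2b, Rerg and Rrad. Their root mean square log2 differences from it were 0.065, 0.231, 0.238, 0.246 and 0.249. Ccn2, a matricellular protein, changed by 0.51 between genotypes (adjusted p = 0.407). The mean profile is weighted towards Hspa1a and Hspa1b, whose departures are the largest of the 10.

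Apart from the non-uniform spots of C3aR-/- replicate 1, the arrays were alike in detection, with 33530 to 35147 of 59305 transcript spots (56.5% to 59.3%) well above background and 0 saturated. The tubule markers Slc34a1 and Umod were bright. Slc34a1, the phosphate transporter of the proximal tubule, read 7.45 to 7.60 over the 6 arrays. Umod of the thick limb, which does not define cortex, read 7.38 to 7.60. All 10 proximal tubule markers were measured. Counts of markers called stand beside 7.05% of all genes higher and 7.26% lower. Beside the rise of Hspa8, 2 of 10 proximal tubule markers were higher (Slc5a12 by 0.73 and Slc5a2 by 0.34). The collecting duct markers went both ways: 3 of 8 were higher and 1 lower (Aqp2 rose by 0.88 and Slc4a1 fell by 0.51). Of 6 B and plasma cell markers 3 were lower (Jchain fell by 2.65). Of 7 endothelial markers 2 were higher and 1 lower, as were 2 and 1 of 7 thick limb and distal tubule markers and 1 and 1 of 7 macrophage markers. Of 6 podocyte markers 1 was higher, of 7 T and NK cell markers 1 was lower, and 0 of 9 smooth muscle and fibroblast and 0 of 4 red blood cell markers were called by limma, with 1 and 0 at an unadjusted p under 0.05. A stricter filter kept a probe if it cleared background on each of the 6 arrays. Under that filter 0 of 5 T and NK cell markers were lower. For B and plasma cell markers the count was 2 of 5. Of 5 measured osmotic stress genes of the medulla, 0 were called by limma and 1 had an unadjusted p under 0.05. In bulk tissue fewer cells of a type and less RNA per cell cannot be told apart, and the part of cell makeup in the heat shock gene levels was not tested. Over all genes 1444 were higher and 1487 lower, and with median scaling 1820 and 1052.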

How the data were processed

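RNA of 3 WT and 3 C3aR-/- control kidney cortex samples was read on one-colour arrays. Per the file headers, Agilent Feature Extraction 10.7.1.1 gave each spot a background-subtracted intensity, the processed signal. The deposited log2 table served as an alternative; its 6 columns had medians of 5.39 and correlated at 0.993 to 0.996 with their own array, and its centring and filtering are not given in the sources used here. Control and outlier-flagged spots were left out, and spots of a probe were averaged as log2 intensity minus the array's 75th percentile (662 to 827 before the log). The number of arrays limits the precision. Probes above background throughout 1 genotype or both were kept (30867), and the brightest stood for each of 20490 genes. limma 3.58.1 in R 4.3.3 (lmFit, eBayes, two-sided, Benjamini-Hochberg over all genes or all probes, threshold 0.05) gave every adjusted p, and was tested on simulated data. The main fit did not pair arrays by replicate number. Symbols came from RefSeq (GRCm38.p6, 32994 of 56605 probes matched), and probe coordinates from the array files (mm9).

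The members and the 23 companion lists were chosen with earlier results of these data known. Named genes were the 10 members with every probe, up to 3 called genes per direction of each chaperone, heat shock factor, temperature, immediate early or clock list, Hsf1 and Hsf2, the 5 nearest profiles and up to 2 markers of a cell type. The nearest profiles were taken among genes with a known symbol, leaving out predicted genes, clones and array identifiers. Fos, Egr1, Egr2, Nr4a1 and Jun, and the markers Slc34a1 and Umod, were chosen after their values were seen, as was the shared order of the arrays. Alternatives were normexp background correction, quantile normalisation, median scaling, the deposited table, filters on dim probes, the mean of a gene's probes, other variance moderation, a replicate block and leaving out each array.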

Additional observations from a re-analysis of the deposited data

How the results depend on the processing

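Of 150 values of the 10 genes under alternatives, 139 kept their direction and their side of the threshold, 6 lost and 2 gained a call, and 3 turned sign. The count of members called higher was 0 with quantile normalisation and 0 with no filter on dim probes, and that of probes 2 of 18 and 1 of 19, where 7.33% and 0.695% of all probes were higher. Leaving out 1 array gave 0 to 3 members and 0 to 7 probes called higher (0.765% to 2.47% of all probes) and a median change of 0.16 to 0.68. Hspa1b ranged from -0.013 (WT replicate 1 left out) to 2.09, and Dnajb1 from -0.42 to 0.40, its highest value being that with WT replicate 3 left out. Dnajb1 was also positive, at 0.13, with C3aR-/- replicate 1 left out. Fewer arrays entered these fits and the cause was not tested further. Of 224 values of other named genes, 156 kept their side of the threshold and 68 lost a call, with 0 turned sign. These values cover the called genes of the chaperone, temperature and clock lists, on which all 68 losses fell. They also cover Hsf1, Hsf2, Fos, Egr1 and Jun, which had no call to lose. Egr2, Nr4a1, the nearest profiles and the cell type markers were not followed in this way.

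With the replicate number as a block, 1 member and 3 probes were called higher, beside 242 genes (1.18%) over the whole array. Same-numbered arrays correlated at 0.04, -0.03 and -0.07 in their deviations, so no shared variation by number was seen. With 3 arrays a genotype this cannot settle whether the samples were paired. The limits of these data are 3 arrays a genotype, 1 slide a genotype and the spread of Hspa1a and Hspa1b within each genotype. Probes spotted 10 times on an array had a median SD of 0.029 to 0.041 on the log2 scale, which covers noise within an array and not that of extraction, labelling or hybridisation.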
